A study of Homo sapiens with 6 samples.

Results

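Cells make cholesterol and fatty acids from acetyl-CoA by 2 long enzyme pathways, and 33 genes of these pathways were followed here in human keratinocytes. The members were listed by name: 20 sterol enzymes, 6 regulators and transport genes of the same system, and 7 fatty-acid enzymes. All 33 were found among the 27945 genes of the deposited table and all 33 reached 1 RPKM (reads scaled to transcript length and library depth) in at least 1 library, as did 12925 genes in all. The cells were HaCaT, an immortalised line of human keratinocytes grown in DMEM with 10% serum. Wild-type cells and cells labelled as a knockout of p38α, the stress kinase encoded by MAPK14, received PBS or the cytokine IL-1α for 4 h. Each genotype had 1 library after PBS and 2 after IL-1α, so that 6 bulk RNA-seq libraries formed 4 groups. The labels did not describe the edit, the number of clones or whether clones were pooled, and they did not say that replicates were separate cultures, so each p-value measures only the spread between these libraries.

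Depth recovered from the values ranged from 16294075 to 34967689 reads, and the members were counted with between 67 reads (TM7SF2) and 37614 reads (SCD) in a library. MAPK14 itself ranged from 13.3 to 14.8 RPKM in the wild-type libraries and from 7.41 to 11.3 RPKM in the knockout libraries, so transcripts of the targeted gene were still counted and the label could not be checked from its level alone. All 9 keratinocyte markers examined reached 1 RPKM in some library, with sums of 4007 to 4494 RPKM in wild type and 2862 to 3254 RPKM in the knockout. Of the markers of other cell types, 2 of 6 for fibroblasts, 0 of 4 for melanocytes, 1 of 5 for leukocytes (CD68) and 1 of 3 for endothelium (CDH5) reached 1 RPKM, and TYR, LYZ and PECAM1 were at 0 throughout. Fibroblast markers summed to 1.67 to 2.59 RPKM in wild type and 0.805 to 1.27 RPKM in the knockout, and melanocyte markers to 0.330 to 0.533 and 0.328 to 0.611 RPKM. Leukocyte markers summed to 6.31 to 14.8 RPKM in wild type and 4.88 to 7.63 RPKM in the knockout, and endothelial markers to 1.82 to 11.96 and 1.90 to 10.5 RPKM. In bulk RNA, fewer cells of a kind and less RNA per cell cannot be told apart.

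The mevalonate pathway starts with HMGCS1 and passes through MVK, PMVK, MVD and IDI1 to FDPS, whose product farnesyl diphosphate is shared by cholesterol, ubiquinone and the lipid anchors of proteins. FDFT1 and SQLE commit it to sterols, LSS closes the ring, and CYP51A1, MSMO1, NSDHL, HSD17B7, EBP, SC5D and DHCR7 carry the ring to cholesterol. Transcription of these genes is governed by 2 membrane-bound factors, encoded by SREBF1 and SREBF2: the escort SCAP carries them to the Golgi for cleavage when sterols are scarce, and INSIG1 and INSIG2 hold SCAP back in the endoplasmic reticulum when sterols are plentiful. The protein from SREBF2 acts mainly on sterol genes and a form from SREBF1 mainly on fatty-acid genes such as FASN and SCD, and INSIG1 is itself a target of the pathway. In the epidermis, locally made cholesterol, fatty acids and ceramides fill the spaces between cornified cells and form the water barrier.

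The promoters of 3 regulators are shown because the sequences differ in which binding motifs of this control circuit they hold, while the transcripts of the 2 INSIG genes are those that came nearest to the threshold between the genotypes below. Each line gives the 250 bases before the RefSeq start on GRCh38.p14, 5′ to 3′ on the gene's strand, with capitals marking matches on either strand to TCACNCCAC (a sterol element), CCAAT (NF-Y), GGGCGG (Sp1) or CACGTG (E-box).
SREBF2, chr22:41832855-41833104, plus strand: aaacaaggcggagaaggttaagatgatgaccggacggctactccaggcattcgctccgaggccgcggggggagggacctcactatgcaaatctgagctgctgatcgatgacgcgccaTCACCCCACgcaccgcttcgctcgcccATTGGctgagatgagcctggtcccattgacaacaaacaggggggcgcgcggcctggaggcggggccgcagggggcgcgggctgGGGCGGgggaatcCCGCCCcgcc
INSIG1, chr7:155297628-155297877, plus strand: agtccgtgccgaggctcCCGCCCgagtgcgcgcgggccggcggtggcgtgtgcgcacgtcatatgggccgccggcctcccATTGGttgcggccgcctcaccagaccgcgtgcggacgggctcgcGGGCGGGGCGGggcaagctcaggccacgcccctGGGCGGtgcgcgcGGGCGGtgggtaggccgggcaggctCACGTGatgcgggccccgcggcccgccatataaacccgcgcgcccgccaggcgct
INSIG2, chr2:118088221-118088470, plus strand, the first of 2 start sites in the table: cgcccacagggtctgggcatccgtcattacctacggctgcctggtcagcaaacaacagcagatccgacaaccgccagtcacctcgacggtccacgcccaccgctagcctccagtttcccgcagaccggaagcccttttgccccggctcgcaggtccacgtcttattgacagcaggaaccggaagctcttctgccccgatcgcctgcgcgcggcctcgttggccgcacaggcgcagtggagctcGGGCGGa
The sterol element began 133 bases before the start of SREBF2 and was found in no other member window, and in 1.13% of all 35116 promoter windows. INSIG1 held an E-box 55 bases before its start, beside 1 CCAAT match and 5 GGGCGG matches, and INSIG2 held 1 GGGCGG match and none of the other 3 motifs. RefSeq promoters were matched for 29 of the 33 members, in 41 windows, and FASN, SQLE, FDFT1 and ACAT2 had none in the table. CCAAT lay in 25 of the 41 windows (61.0%, against 34.6% of all windows), GGGCGG in 35 (85.4%, against 45.0%) and CACGTG in 5 (12.2%, against 7.26%). The shares were counted over each whole promoter window, and the cut to 250 bases was made only for the printed sequences. All windows were counted whether or not their genes were expressed in these cells, so the members were not set against other expressed genes. A member with several windows counted more than once. These are counts of letters and say nothing of binding.

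The genes were well expressed. SCD, the desaturase that makes oleate, had the highest median level over the 6 libraries at 189 RPKM, above 98.3% of the tested genes. FDPS followed at 137 RPKM, then ACLY, which makes cytosolic acetyl-CoA, at 95.6 RPKM, FDFT1 at 89.1 RPKM and EBP at 76.2 RPKM. At the low end stood STARD4, a sterol carrier, at 3.71 RPKM, the desaturase FADS2 at 3.34 RPKM and TM7SF2, a sterol reductase, at 3.16 RPKM. The reductase step of TM7SF2 is shared with LBR, which ranged from 32.5 to 53.2 RPKM over the same libraries. The median member stood at 27.5 RPKM, against 8.91 RPKM for the median tested gene, and 27 of 33 members were above that gene. Neighbours in the order often overlapped: SCD spanned 158 to 231 RPKM and FDPS 111 to 188 RPKM over the libraries.

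Across the libraries the set was about as variable as other transcripts. The highest library was 1.64 times the lowest for the median member, against 1.70 times for the median tested gene. SREBF1 varied most, at 2.59 times, followed by STARD4 at 2.49 and FADS1 at 2.37. Summed over the 20 sterol enzymes, the unstimulated wild-type library held 944 RPKM and the other 5 held 723 to 802 RPKM. The median sterol enzyme did not follow the sum. It stood at 35.7, 35.9 and 35.9 RPKM in the wild-type libraries and 33.4, 34.5 and 27.8 RPKM in the knockout libraries, PBS first. The unstimulated wild-type library was the highest of the 6 for 15 of 33 members, while 31.5% of all tested genes were highest there.

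**Figure D1:**
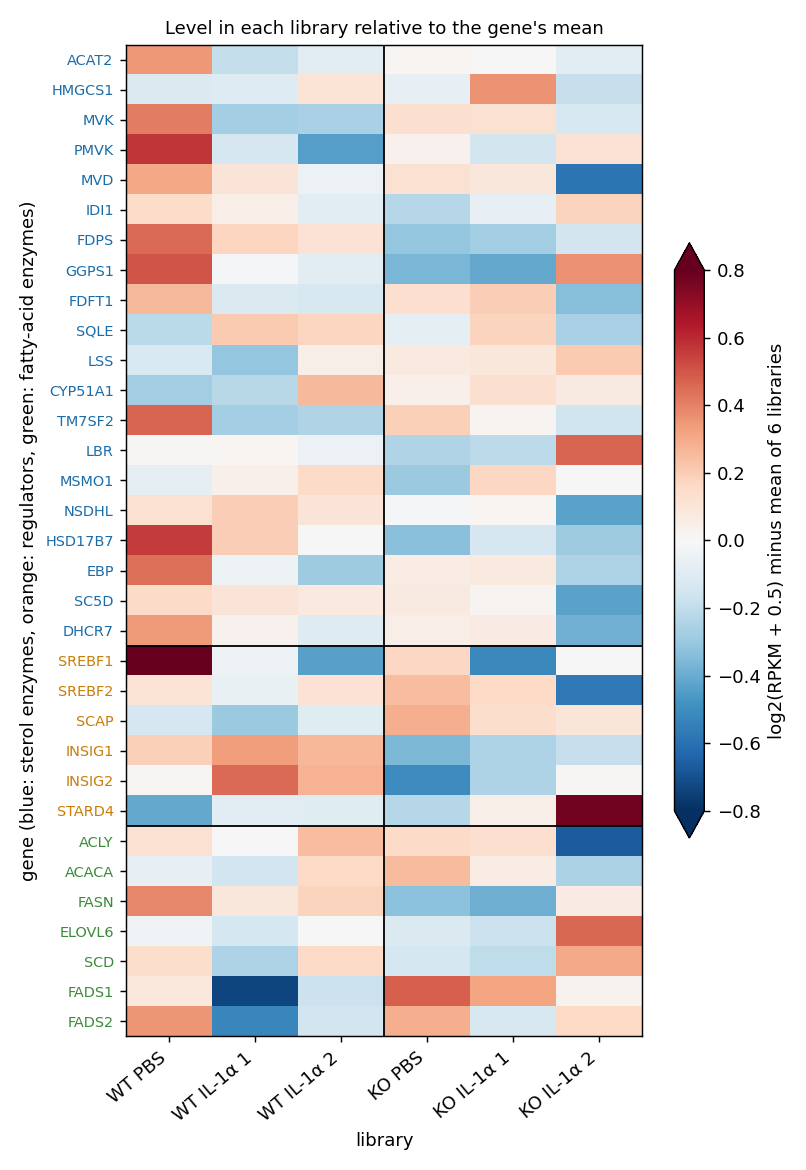
Level of each member in each library relative to that member's mean over the 6 libraries, on the log2(RPKM + 0.5) scale, with higher values in red and lower in blue. SREBF1 is highest in the unstimulated wild-type library, and knockout IL-1α replicate 2 differs from its partner in both directions.

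Knockout IL-1α replicate 2 stood apart from its partner, and the sterol enzymes made this plain. Over all tested genes its correlation with replicate 1 was 0.969, whereas replicate 1 and the PBS library of the knockout reached 0.982 and the stimulated replicates of wild type 0.985. Between the knockout replicates 17 of 33 members were at least 25% apart, against 39.1% of all tested genes; between the wild-type replicates 6 members were, against 25.0%. ACLY was the widest, at 96.0 and 54.9 RPKM in knockout replicates 1 and 2. Other members lower in replicate 2 included HMGCS1, which makes HMG-CoA, at 46.3 and 31.6 RPKM, and FDFT1 at 101 and 69.5 RPKM. SREBF2 read 36.1 and 21.5 RPKM. Members on the other side included STARD4, at 4.13 and 7.15 RPKM, and LBR, at 33.3 and 53.2 RPKM. In all, 10 members were lower and 7 higher in replicate 2 by this measure, so the shift had no common direction. Of the 20 sterol enzymes, 8 were lower and 2 higher, and over all tested genes the shares were 19.3% and 19.8%. The main genotype and knockout values are therefore also given without it.

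The first comparison asked how these genes stood after 4 h of IL-1α in wild-type cells. None of the 33 members passed limma's test at a Benjamini-Hochberg adjusted p of 0.05, where 0.217% of all tested genes passed (28 genes), and voom on recovered reads also called 0 members. At an unadjusted p under 0.05 there were 7 members lower and 0 higher, and the background was 13.4% of genes lower and 4.69% higher. The whole distribution lay low, with a median log2 difference of -0.16 for the members and -0.14 for all tested genes on the log2(RPKM + 0.5) scale used for every difference here. Rescaling the libraries by median of ratios brought the median of all genes to -0.01.

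SREBF1 (chr17:17715386-17726978, hg19) showed the widest difference. It read 43.1 RPKM in wild type after PBS and then 23.3 and 17.6 RPKM after IL-1α, so both stimulated libraries lay below the unstimulated one. The log2 difference was -1.07 ± 0.29 (SE; 95% interval -1.77 to -0.38), with a limma adjusted p of 0.164. In knockout cells the same gene read 27.0 RPKM after PBS and 16.6 and 23.9 RPKM after IL-1α. The knockout difference was -0.43 (95% interval -1.12 to 0.27), and -0.68 without knockout replicate 2. Over both genotypes the fitted IL-1α difference was -0.75 ± 0.22, with an adjusted p of 0.186, and all 4 stimulated libraries were below both unstimulated ones. SREBF2, the paralogous factor, read 34.8 RPKM in wild type after PBS and 30.9 and 35.0 RPKM after IL-1α, on both sides of the unstimulated value.

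Among the sterol enzymes, 15 of 20 were lower in wild-type cells after IL-1α, with a median log2 difference of -0.30. Of all 12925 tested genes, 8146 were lower, with a median of -0.14. PMVK, which adds the phosphate after MVK, read 28.2 RPKM after PBS and 17.1 and 13.8 RPKM after IL-1α (log2 difference -0.86 ± 0.23, limma adjusted p 0.164). MVK read 18.2 RPKM and then 11.1 and 11.2 RPKM (-0.68 ± 0.20, adjusted p 0.191), with stimulated replicates that almost coincided. EBP, the sterol isomerase, read 103 RPKM and then 73.5 and 62.3 RPKM (-0.60 ± 0.23, adjusted p 0.248). The other members with an unadjusted p under 0.05 were TM7SF2 (-0.72), the fatty-acid desaturase FADS2 (-0.69) and ACAT2, which makes acetoacetyl-CoA for the first step (-0.48). Other enzymes did not share this direction. SQLE, the epoxidase, read 38.2 RPKM after PBS and 51.6 and 50.2 RPKM after IL-1α, both above the unstimulated library (0.41, 95% interval -0.16 to 0.98). HMGCS1 read 33.2 RPKM and then 33.5 and 38.9 RPKM (0.12, 95% interval -0.54 to 0.77). CYP51A1, the demethylase, read 19.8 RPKM and then 20.6 and 29.0 RPKM, and 1 stimulated replicate was close to the unstimulated library.

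**Figure D2:**
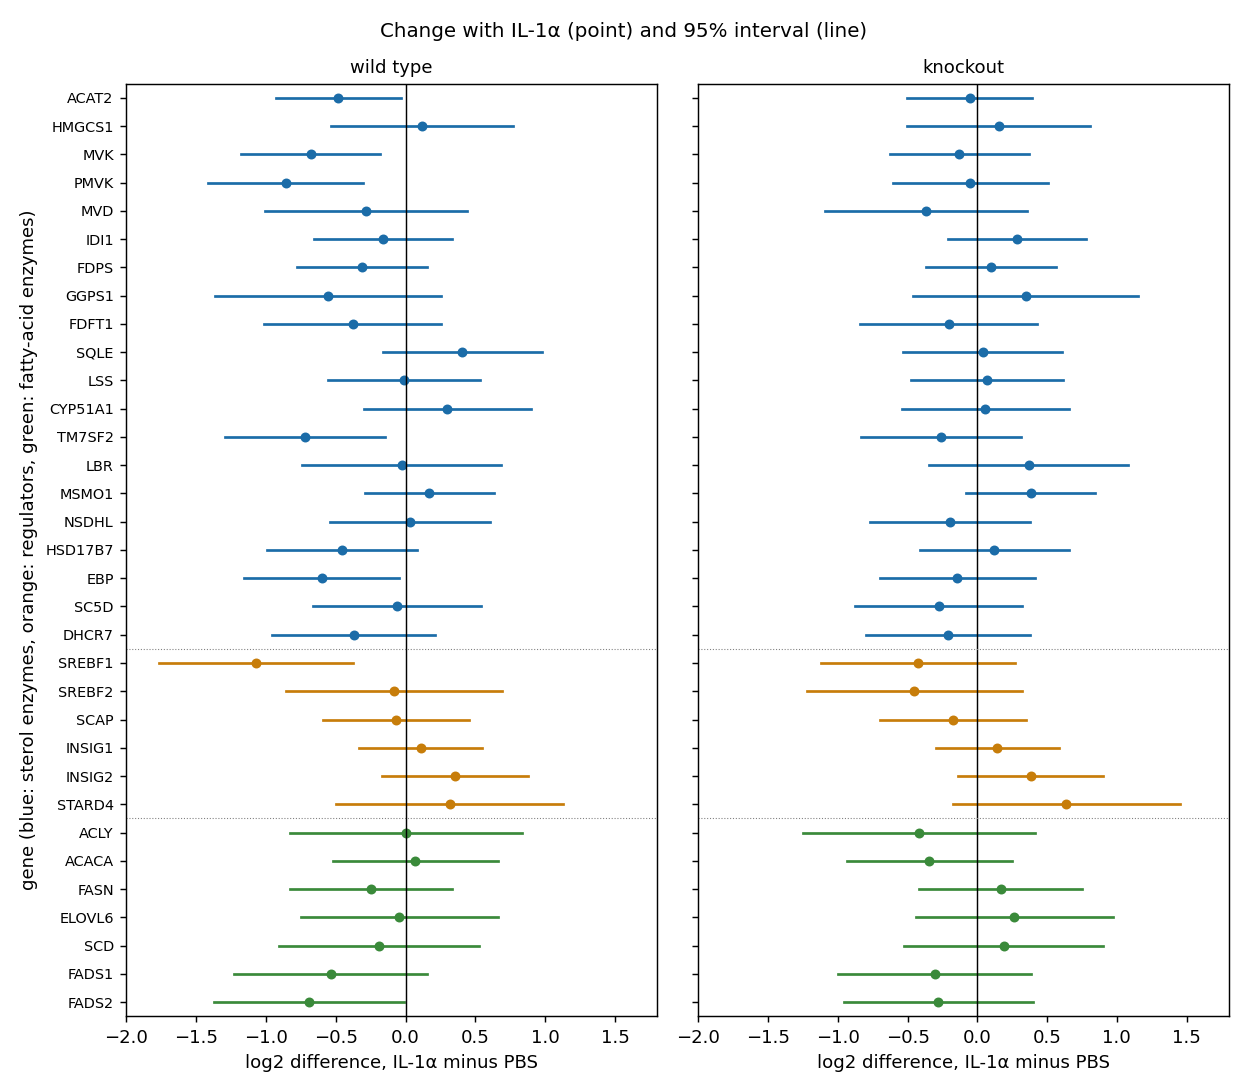
Log2 difference after 4 h of IL-1α for each member in wild-type and in knockout cells, with 95% intervals from limma. SREBF1 lies lowest in wild type at -1.07, and no member passed the adjusted threshold in either genotype.

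Transcript length moved with these differences. Members shorter than 2 kb (10 genes, among them PMVK, EBP, TM7SF2, ACAT2 and FDPS) had a median log2 difference of -0.42 in wild-type cells, and the 23 longer members a median of -0.06. All tested genes showed the same split, at -0.40 for those under 2 kb and -0.04 for the others. With the length trend removed from each library, the difference became -0.37 for PMVK, -0.16 for EBP, -0.38 for TM7SF2 and -0.19 for ACAT2. SREBF1, whose transcript is longer, stayed at -1.06, and MVK, just above 2 kb, became -0.45. The median of the sterol enzymes became -0.07.

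**Figure D3:**
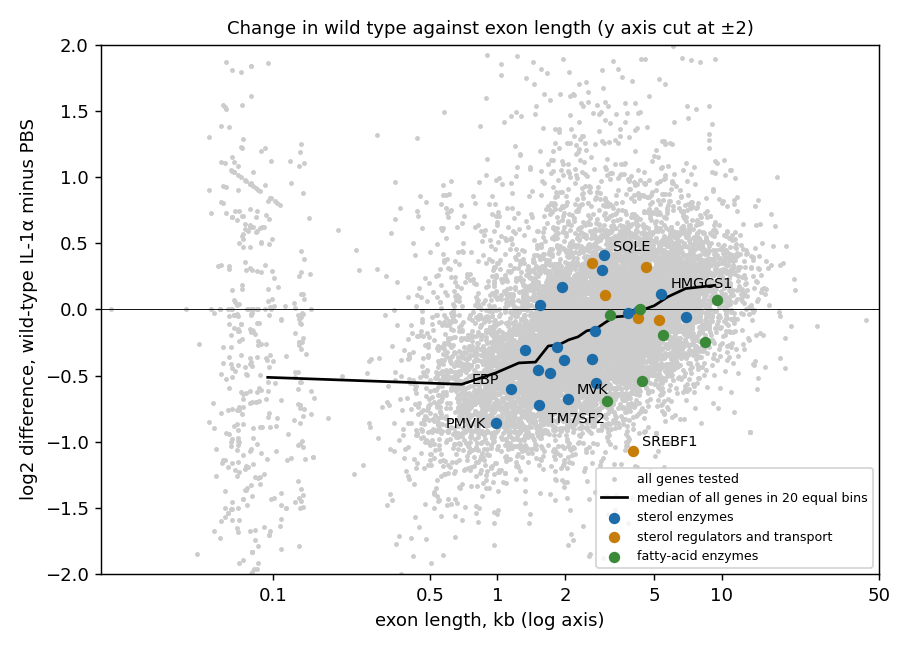
Log2 difference after IL-1α in wild-type cells against exon length in kb (log axis) for all tested genes in grey and the members in colour, with a line for the median of all genes in 20 equal bins; 114 genes lie beyond the vertical range. Short transcripts lie lower as a class, and SREBF1 lies at -1.07.

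In wild-type cells after IL-1α, 8146 of 12925 tested genes were lower. Of the fatty-acid enzymes, 5 of 7 were lower, with a median log2 difference of -0.19. The median was 0.01 without wild-type replicate 1 and -0.26 with the length trend removed. SCD read 207 RPKM after PBS and 158 and 209 RPKM after IL-1α, so the replicates lay on both sides of the unstimulated library (-0.19, 95% interval -0.90 to 0.52). FASN, the synthase that builds palmitate, read 65.1 RPKM and then 53.1 and 56.4 RPKM (-0.25, 95% interval -0.83 to 0.34). FADS1, a desaturase of polyunsaturated fatty acids, read 24.4 RPKM and then 13.6 and 20.4 RPKM. Both FADS1 replicates were lower, but they differed from each other more than any other member of the wild-type pair. FADS1 and FADS2 overlap at chr11:61583876-61584529 (hg19), and the strand setting of the count was not given, so reads there cannot be assigned with certainty.

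In knockout cells the same 4 h of IL-1α again called none of the 33 members, with 0.0696% of tested genes called (9 genes) and 0 members called by voom. No member had an unadjusted p under 0.05, against 3.58% of tested genes. The 20 sterol enzymes were divided evenly, 10 higher and 10 lower, with a median log2 difference of -0.01, beside -0.02 for all tested genes. Individual values ran from -0.45 for SREBF2 to 0.64 for STARD4, and both extremes came from knockout replicate 2. Without that replicate they were -0.09 for SREBF2 and 0.28 for STARD4. MSMO1, a sterol demethylase, read 23.8 RPKM after PBS and 33.0 and 29.5 RPKM after IL-1α, with both stimulated libraries higher (0.38, 95% interval -0.08 to 0.85). INSIG2 read 9.37 RPKM and then 11.3 and 13.6 RPKM (0.38, 95% interval -0.14 to 0.90). It was also higher in both wild-type IL-1α libraries, and over both genotypes its fitted difference was 0.37 (limma adjusted p 0.29). MVD, which makes isopentenyl diphosphate, read 38.9 RPKM after PBS and 37.98 and 23.6 RPKM after IL-1α, so only replicate 2 stood apart. The fatty-acid enzymes had a median of -0.28 with both replicates and -0.06 without replicate 2. The median half-width of the 95% intervals of the sterol enzymes was 0.57 in either genotype.

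Over both genotypes together, the fit with 1 IL-1α term also called 0 of 33 members (limma, Benjamini-Hochberg; 0 by voom), where it called 1.07% of tested genes. At an unadjusted p under 0.05 there were 1 member higher, INSIG2, and 4 lower, SREBF1, TM7SF2, FADS2 and MVK, against 5.72% of tested genes higher and 9.96% lower.

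The interaction asked whether the response to IL-1α differed between the genotypes. It called 0 of 33 members and 0.0% of tested genes (limma, Benjamini-Hochberg), and voom called 0 members. At an unadjusted p under 0.05 stood 1 member, PMVK, against 4.39% of tested genes. For PMVK the knockout libraries read 19.3 RPKM after PBS and 17.0 and 20.5 RPKM after IL-1α, on both sides of the unstimulated value. Its interaction was 0.81 ± 0.32 (95% interval 0.02 to 1.59), with an adjusted p of 0.966, and it was 0.38 with the length trend removed and 0.67 without knockout replicate 2. For SREBF1 the interaction was 0.65 (95% interval -0.34 to 1.63), and 0.39 without knockout replicate 2. GGPS1, which makes geranylgeranyl diphosphate, had the widest value, 0.90 (95% interval -0.24 to 2.04), and rested on knockout replicate 2 at 11.9 RPKM beside 6.74 in replicate 1 and 6.95 in the unstimulated knockout library. The GGPS1 value was 0.51 without that replicate. The interaction was positive for 24 members and negative for 9, beside 7810 and 5115 of all tested genes. The widest negative values were -0.42 for ACLY and ACACA and -0.37 for SREBF2 and SQLE. Without knockout replicate 2, ACLY stood at -0.02 and ACACA at -0.26. The sterol enzymes had a median interaction of 0.30, the fatty-acid enzymes 0.31 and all tested genes 0.10. With the length trend removed the sterol median was 0.08. The differing wild-type and knockout responses above are thus not shown to differ between genotypes.

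The genotypes were compared in 3 ways: with all 6 libraries in a fit that also held IL-1α, under IL-1α alone, and between the unstimulated libraries. The 6-library fit called 0 of 33 members at an adjusted p of 0.05, where it called 2.65% of tested genes (343 genes), and voom called 0 members. At an unadjusted p under 0.05 there were 2 members higher in the knockout, FADS1 and SCAP, and 5 lower, INSIG1, INSIG2, FDPS, HSD17B7 and FASN, against 13.9% of tested genes higher and 8.71% lower. By ranges alone, 9 members had 3 knockout libraries that did not overlap the 3 wild-type libraries, 7 lower, where 8.86% of tested genes were, and 2 higher, where 15.7% of tested genes were. The summed keratinocyte and fibroblast markers given above also stood lower in all 3 knockout libraries. Of the keratinocyte markers, KRT14 and SFN were lower in every knockout library, KRT5 and ITGA6 overlapped, and TP63 and ITGB4 overlapped between the genotypes with 2 knockout libraries above every wild-type library. Of the fibroblast markers, COL1A1 was higher in 2 of the 3 knockout libraries than in any wild-type library. The part of these markers in the members' differences was not tested.

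INSIG1 (chr7:155089482-155101945, hg19), whose promoter is printed above, came nearest to the threshold. It read 31.1, 34.4 and 32.8 RPKM in the wild-type libraries and 21.1, 22.8 and 23.8 RPKM in the knockout libraries, PBS first. Every knockout library was below every wild-type library. Over the PBS and IL-1α libraries together, the means were 32.7 ± 1.64 against 22.6 ± 1.41 RPKM (SD, n = 3 each). These SDs mix the 2 conditions and are not a spread between replicates. The log2 difference was -0.53 ± 0.12 (SE; 95% interval -0.81 to -0.25), with a limma adjusted p of 0.0653. Without knockout replicate 2 the INSIG1 difference was -0.55, and over all the settings tried it ran from -0.60 to -0.51. IL-1α left INSIG1 almost level in both genotypes, at 0.11 (95% interval -0.33 to 0.55) in wild type and 0.14 (95% interval -0.30 to 0.58) in the knockout.

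**Figure D4:**
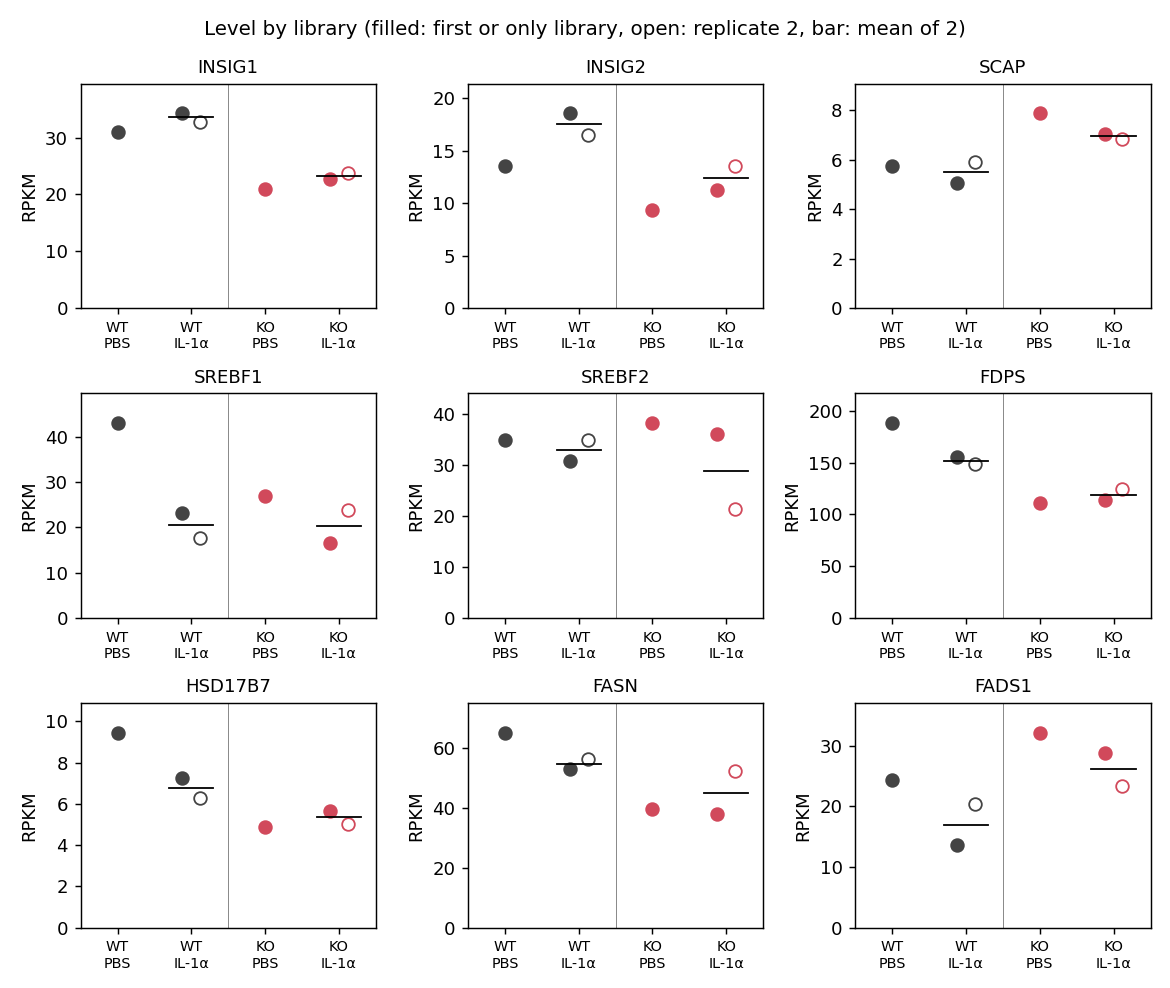
Level in RPKM of 9 members in each of the 6 libraries, on axes that start at 0, with wild type in black and knockout in red. Filled points are the first or only library of a group, open points replicate 2, and bars the mean of the 2 IL-1α libraries; INSIG1 is lower in every knockout library, and SREBF2 and FASN show how far knockout replicate 2 lies from its partner.

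INSIG2 (chr2:118846126-118867607, hg19), the second retention protein, read 13.60, 18.6 and 16.5 RPKM in wild type and 9.37, 11.3 and 13.56 RPKM in the knockout. The groups did not overlap, but only just, since the unstimulated wild-type library and knockout replicate 2 were almost equal. The log2 difference was -0.49 ± 0.14 (95% interval -0.81 to -0.18), with a limma adjusted p of 0.0927. Over all the settings tried it ran from -0.57, without knockout replicate 2, to -0.43. SCAP, the partner that both INSIG proteins bind, read 5.76, 5.08 and 5.91 RPKM in wild type and 7.89, 7.05 and 6.84 RPKM in the knockout. Here every knockout library was higher, by 0.35 ± 0.13 (95% interval 0.04 to 0.66; adjusted p 0.177). With the length trend removed the SCAP difference was 0.21. The factors they hold had wide intervals: SREBF2 differed by -0.11 (95% interval -0.58 to 0.36) and SREBF1 by -0.24 (95% interval -0.72 to 0.24). Without knockout replicate 2 the SREBF2 value turned to 0.13 and the SREBF1 value was -0.44, beside 0.37 for SCAP. With the length trend removed the values were -0.28 for SREBF2 and -0.37 for SREBF1.

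**Figure D5:**
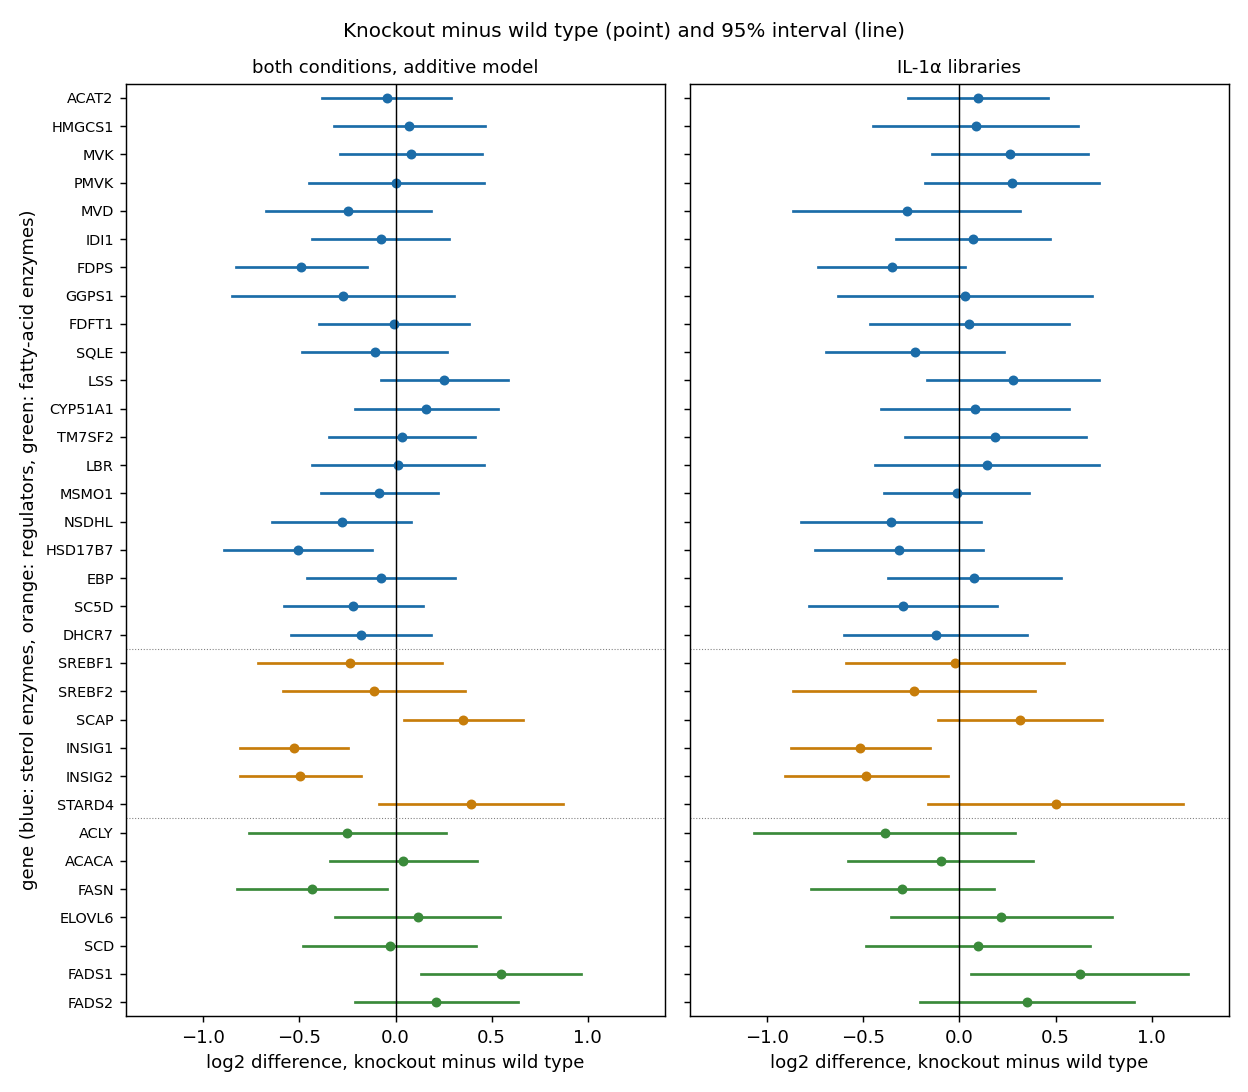
Log2 difference between knockout and wild type for each member in the fit over 6 libraries (left) and among the IL-1α libraries (right), with 95% intervals from limma. INSIG1 and INSIG2 lie at -0.53 and -0.49 and FADS1 at 0.55 on the left, and no member passed the adjusted threshold in either panel.

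FDPS (chr1:155278539-155290457, hg19), at the branch between sterols and other isoprenoids, read 188, 155 and 149 RPKM in wild type and 111, 114 and 124 RPKM in the knockout. Every knockout library was lower, with means of 164 ± 21.3 and 116 ± 7.15 RPKM (SD over PBS and IL-1α libraries together, n = 3 each). The log2 difference was -0.49 ± 0.15 (95% interval -0.83 to -0.15; limma adjusted p 0.113), and -0.43 with the length trend removed. HSD17B7, a sterol reductase (chr1:162760492-162782608, hg19), read 9.45, 7.27 and 6.28 RPKM in wild type and 4.86, 5.65 and 5.04 RPKM in the knockout, again without overlap (-0.51 ± 0.17, adjusted p 0.134). Both genes have pseudogene copies among which the count may have divided reads. The 2 enzymes on either side of FDPS had smaller values: IDI1 differed by -0.08 (95% interval -0.43 to 0.28) and FDFT1 by -0.01 (95% interval -0.40 to 0.38). Without knockout replicate 2 the values were -0.57 for FDPS, -0.52 for HSD17B7, -0.19 for IDI1 and 0.13 for FDFT1. NSDHL, a dehydrogenase, read 38.4, 40.6 and 38.04 RPKM in wild type and 35.1, 35.7 and 26.2 RPKM in the knockout, and SC5D, a desaturase, ranged from 11.59 to 12.2 RPKM and from 8.01 to 11.56 RPKM. For both genes the ranges were apart only narrowly, and most of the gap came from knockout replicate 2. LSS, the cyclase, was the sterol enzyme with higher knockout libraries throughout, at 15.4, 13.5 and 17.4 RPKM against 17.8, 17.9 and 19.5 RPKM. Its log2 difference was 0.25 (95% interval -0.08 to 0.58). Over the 20 sterol enzymes, 13 were lower and 7 higher in the knockout, with a median of -0.08 beside 0.05 for all tested genes. Of all 12925 tested genes, 5667 were lower and 7258 higher.

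FASN (chr17:80036214-80056106, hg19) read 65.1, 53.1 and 56.4 RPKM in wild type and 39.5, 37.9 and 52.1 RPKM in the knockout. All knockout libraries were lower, although knockout replicate 2 came close to the lowest wild-type library. The log2 difference was -0.44 ± 0.17 (95% interval -0.83 to -0.05, limma adjusted p 0.181). It was -0.61 without knockout replicate 2, and ran from -0.68 to -0.35 over all the settings tried. With the length trend removed it was -0.68 (adjusted p 0.0771). FADS1 went the other way, at 24.4, 13.6 and 20.4 RPKM in wild type and 32.2, 28.7 and 23.5 RPKM in the knockout. Its groups overlapped, since the unstimulated wild-type library was above knockout replicate 2 (0.55 ± 0.18, 95% interval 0.13 to 0.97; adjusted p 0.134). It was 0.61 without that replicate. The other fatty-acid enzymes were on both sides of 0. SCD, the most abundant, differed by -0.03 (95% interval -0.48 to 0.42), ACACA, the carboxylase that makes malonyl-CoA, by 0.04 (95% interval -0.34 to 0.42), and ELOVL6, an elongase, by 0.11 (95% interval -0.31 to 0.54). HMGCS1 and SQLE likewise showed no resolved difference, at 0.07 (95% interval -0.32 to 0.46) and -0.11 (95% interval -0.48 to 0.27). Without knockout replicate 2, ELOVL6 turned to -0.10 and SQLE to 0.05, and the values were -0.21 for SCD, 0.17 for ACACA and 0.22 for HMGCS1.

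Under IL-1α alone, with 2 libraries in each group, 0 of 33 members passed limma's adjusted threshold and 0 passed with voom, against 0.155% of tested genes. At an unadjusted p under 0.05 there were 3 members, 1 higher (FADS1) and 2 lower (INSIG1 and INSIG2) in the knockout, against 9.97% of tested genes higher and 4.93% lower. The values were 0.63 (95% interval 0.06 to 1.19) for FADS1, -0.52 (-0.87 to -0.16) for INSIG1 and -0.49 (-0.91 to -0.06) for INSIG2. The limma adjusted p-values were 0.307, 0.229 and 0.296. Without knockout replicate 2 the values were 0.77, -0.55 and -0.61. The IL-1α libraries are also part of the 6-library fit, so the return of these members adds no separate evidence. Medians were 0.06 for the sterol enzymes, 0.10 for the fatty-acid enzymes and 0.09 for all tested genes. Without stimulation, each genotype had 1 library, so that the comparison was made by fold alone and no p-value is given. None of the 33 members was 2-fold apart, where 6.53% of tested genes were. With the length trend removed FASN moved from -0.71 to -1.06. The share of tested genes 2-fold apart under that setting is not reported here. HSD17B7 (-0.89), GGPS1 (-0.87), FDPS (-0.76), FASN (-0.71) and SREBF1 (-0.67) were the lowest in the knockout on the log2 scale, and SCAP (0.42) and FADS1 (0.39) the highest. The sterol enzymes were lower in 16 of 20 cases with a median of -0.26, beside 6622 of 12925 tested genes lower and a median of -0.01. Tested genes under 2 kb had a median of -0.30 in the same comparison, and members under 2 kb also -0.30. At 2 kb or more the medians differed, at 0.11 for tested genes and -0.08 for members. With the length trend removed, the medians at 2 kb or more were 0.004 for tested genes and -0.16 for members. Under 2 kb they were then 0.01 and -0.06. This comparison shares its 2 libraries with the 6-library fit and adds no separate evidence for the same genes.

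Genes around the pathway were taken from fixed lists. Of 11 other sterol genes tested, 0 passed in any comparison. MBTPS2, a protease that cleaves the SREBP proteins, ranged from 5.93 to 6.80 RPKM in wild type and from 7.65 to 8.20 RPKM in the knockout, with every knockout library higher (0.31, limma adjusted p 0.199). None of the 4 tested genes of sterol efflux passed, with values of 0.34 for LPCAT3 and -0.18 for NR1H2.

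Among 10 genes that use isoprenoids made from FDPS products, 1 passed in the 6-library genotype fit and was higher in the knockout. It was COQ2, which joins the isoprenoid tail to the ubiquinone ring. COQ2 read 12.1, 8.80 and 9.59 RPKM in wild type and 19.0, 18.3 and 20.2 RPKM in the knockout, with no overlap, and rose by 0.89 ± 0.14 (95% interval 0.57 to 1.22; limma adjusted p 0.0232). The size kept within 0.82 to 0.93 under every setting tried, and the call was lost with no filter (adjusted p 0.0735) and when wild-type replicate 1 (0.185), wild-type replicate 2 (0.0997) or knockout replicate 1 (0.0758) was left out. FDPS, upstream of it, stood lower in the same libraries. RABGGTB, a subunit of the enzyme that adds geranylgeranyl groups to Rab proteins and chosen after its values were seen, read 56.8 RPKM in wild type and 27.3 RPKM in the knockout after PBS. Knockout replicate 2 read 48.8 RPKM, close to wild type, and the fitted difference was -0.74 (limma adjusted p 0.106). Over all the settings tried it ran from -1.01, without that replicate, to -0.57.

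Of 22 other fatty-acid genes, 0 passed. ELOVL1, an elongase of very long chains, read 73.3, 72.4 and 65.2 RPKM in wild type and 43.2, 46.6 and 51.3 RPKM in the knockout, all lower. Its difference was -0.58 (limma adjusted p 0.0692), and -0.64 to -0.53 over all the settings tried. LPIN1, a phosphatidate phosphatase, read 11.1 RPKM in wild type after PBS and 24.0 and 23.6 RPKM after IL-1α, and 10.1, 14.3 and 16.5 RPKM in the knockout. Its stimulated libraries were higher in both genotypes (0.82 over both, adjusted p 0.061). Of 10 genes of barrier lipids, 0 passed a limma test, and 1, SULT2B1, was over 2-fold lower in the unstimulated knockout library. SULT2B1, which makes cholesterol sulfate, ranged from 2.72 to 5.07 RPKM in wild type and from 1.53 to 1.99 RPKM in the knockout. Its fitted genotype difference was -0.96 (limma adjusted p 0.0571), and -1.17 to -0.81 over all the settings tried. SPTLC3, a subunit of the first ceramide enzyme, differed by 0.60 (limma adjusted p 0.155). ABCA12, the lipid transporter of lamellar granules, was chosen after its values were seen and was low after PBS, at 0.337 and 0.379 RPKM. It read 1.41 and 2.05 RPKM in wild type and 1.30 and 2.39 RPKM in the knockout after IL-1α (1.39 over both genotypes, adjusted p 0.0591).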

How the data were processed

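RNA from 6 HaCaT samples was made into stranded mRNA libraries, per the labels' protocols. The authors used bcl2fastq (2.20.0.422), STAR and HOMER on hg19, per the submitters' processing notes. They deposited a table of RPKM values, with 1 row per gene symbol; per the file headers these come from exon counts. The strand setting is not given in the sources used here, so antisense overlap cannot be told apart. Depth was recovered from values of 0.02 to 1 RPKM as the number that made reads whole within 0.1 read, which held for 97.9% to 99.9% of them.

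The 12925 genes reaching 1 RPKM in any library entered limma (3.58.1, R 4.3.3) as log2(RPKM + 0.5), a scale that understates changes of low genes. Variances were moderated with a trend on the mean, and p-values were adjusted over all of these genes by Benjamini-Hochberg at 0.05. A model of group means (2 residual degrees of freedom, 4.2 prior) gave the IL-1α responses, the genotype comparison under IL-1α and the interaction; an additive model of genotype and IL-1α (3 residual, 5.01 prior) gave values over 6 libraries. Unstimulated groups were compared by a 2-fold threshold. Scripts were checked on simulated data.

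Members and lists were chosen with earlier results of these data known. Values in every library are given for members that pass, the 4 largest rises and falls per comparison among those of at least 5 RPKM and 7 fixed genes (25 members in all); from each related list, for genes that pass or else the 2 largest genotype differences; some genes of these lists are not reported here. Alternatives were another pseudocount (0.1), no filter, median-of-ratios scaling, no trend, voom, removal of a length trend (lowess, span 0.3), each IL-1α replicate left out, and a replicate block.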

Additional observations from a re-analysis of the deposited data

Results flagged for a closer look

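For 3 of the 33 members, both wild-type IL-1α libraries lay below the unstimulated wild-type library while both knockout IL-1α libraries lay above the unstimulated knockout library. Counting opposite sides in either orientation, the share was 9.09% of members, against 13.2% of all tested genes. The knockout response minus the wild-type response was 0.4444 on the log2 scale for IDI1, 0.4096 for FDPS and 0.5786 for HSD17B7. With the length trend removed these became 0.33, 0.07 and 0.28, and the wild-type response of FDPS turned to 0.08, so that the opposite direction did not hold for that gene. The limma interaction test gave an adjusted p of 0.966 for each, so the difference was not resolved. IDI1 read 54.9, 51.4 and 46.7 RPKM in wild type and 42.3, 47.2 and 56.2 RPKM in the knockout, PBS first. The cause was not tested.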

How the results depend on the processing

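The alternatives were followed for 44 values of members and chosen related genes that had an unadjusted p under 0.05 (limma). Of their 484 alternative values 0 changed direction, and 464 stayed on their side of the adjusted p threshold. Members outside this selection did change direction, such as SREBF2, ELOVL6 and SQLE in the genotype fit without knockout replicate 2. Counts of called genes moved with the settings. The wild-type IL-1α count (28) became 49 with no filter, 48 with median of ratios, 11 with voom, 96 with the length trend removed and 0 to 46 with 1 replicate left out (0 without either wild-type replicate). The knockout IL-1α count (9) became 65, with no trend 4, with voom 2, with length removed 21 and 0 in every fit with a replicate left out. The genotype count under IL-1α (20) became 7 with a pseudocount of 0.1, 0 with no filter, 0 with no trend, 55 with voom, 40 with length removed and 0 with any replicate left out. The interaction count (0) became 87 with no filter. The 6-library genotype count (343) became 63 with no filter, 531 with voom and 14 (without wild-type replicate 2; 19 without replicate 1, 134 without knockout replicate 1) to 911 (without knockout replicate 2) with a replicate left out. The IL-1α count over both genotypes (138) became 37, 213 and 17 to 224 under the same 3, with the same replicates at the ends. A fit with 1 library in a group assumes that it varies like the other groups.

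Members called in the 6-library genotype fit (0) became 1 with median of ratios and 1 with length removed, INSIG1 in each (adjusted p 0.0452 and 0.0281, limma). The share of all tested genes under these settings is not reported here, so the counts are not a result about the members. Fits with a replicate left out keep 1 library in that group, and members called in them are not counted. Without stimulation, 1 member passed 2-fold with length removed, FASN at -1.06, and the share of tested genes there is likewise not reported here. The sterol median in wild type (-0.30) was -0.15 with median of ratios, -0.072 with length removed and -0.35 to -0.25 with a replicate left out. The sterol median of the interaction (0.30) was 0.17 with median of ratios and 0.078 with length removed, and that of the knockout against wild type under IL-1α was -0.089 to 0.083 with a replicate left out. The fatty-acid median in the knockout response (-0.28) was -0.28 to -0.062 with a replicate left out. The cause was not tested.

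Same-numbered IL-1α libraries deviated with a correlation of 0.0086. This correlation alone cannot tell whether the numbers pair them. With a replicate block the counts were 81 for wild type, 18 for the knockout, 58 for the genotype under IL-1α, 202 for the 6-library genotype fit and 77 for IL-1α over both genotypes, and no member was called.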
